A study of Mus musculus with 6 samples.

Results

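Complexes II to V are the mitochondrial respiratory complexes other than complex I, and most of their subunits are encoded in the nucleus. Their nuclear genes were taken by name alone, as the protein-coding genes called Sdha to Sdhd, Cyc1, Cycs, or by a symbol that starts with Uqcr, with Cox4 to Cox8, or with Atp5. This rule found 50 of the 54532 genes in the deposited table: 4 of complex II, 10 of complex III with cytochrome c, 18 of complex IV and 18 of complex V. The rule uses no measured value, though it was written with earlier results of these data known.

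The data are RNA sequencing of muscle from mice of C57BL/6 background, with 6 libraries in 2 groups of 3. The Igf2 cKO mice were Mck-Cre+; Igf2f/f, in which Cre driven by the muscle creatine kinase promoter, active in striated muscle fibres, removes an exon of Igf2 that is flanked by loxP sites. The control mice were Mck-Cre-; Igf2f/f, so both groups carried the floxed alleles and differed by the Cre transgene. Igf2 encodes insulin-like growth factor II, and the labels name sarcopenia, the loss of muscle with age, as the setting, but give no muscle, age or sex. Other cells of the tissue keep Igf2, because the promoter of the transgene is not active in them.

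Complex II, succinate dehydrogenase, passes electrons from succinate to ubiquinone, complex III passes them on to cytochrome c, and complex IV, cytochrome c oxidase, passes them to oxygen. Complexes III and IV pump protons, and complex V, the ATP synthase, uses the proton gradient to make ATP. Complex IV is known for subunits that exist in a heart and skeletal muscle form and in a form found in most tissues, and oxidative muscle fibres hold more of all these complexes than glycolytic ones.

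Libraries held 17503334, 16184371 and 16889674 counted reads in Igf2 cKO muscle, against 17905203, 17820729 and 16335647 in control muscle, and 20791 to 21401 genes were detected in each. Tnni2, a troponin of fast muscle fibres, had 90966 to 124269 counts, while the heart marker Nppa, the brown fat marker Ucp1 and the testis markers Tnp1 and Ldhc were at 0 in all 6 libraries. Of the same lists, the heart myosin Myh6 had 85 counts in Igf2 cKO replicate 2 and 7 to 16 in the others, and the heart marker Tnni3 had 2 to 7, the brown fat markers Cidea 5 to 26 and Dio2 82 to 134, and the testis marker Prm1 2 to 10 counts. Igf2 itself had 33, 37 and 42 counts in Igf2 cKO muscle, against 60, 43 and 39 in control muscle, and its difference of -0.31 ± 0.25 (log2, SE) did not pass the test (edgeR quasi-likelihood adjusted p = 0.751). The count covers the whole gene, so it does not separate the deleted exon. Igf2 cKO replicate 2 stood apart from the other 2 libraries of its group in slow fibre genes, whose summed level was 469, 2446 and 482 CPM (counts scaled to library size) in the Igf2 cKO libraries, against 1378, 1246 and 1328 CPM in the control libraries. The medians over the members and over each complex are given with and without it.

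No nuclear gene of complexes II to V was called different between Igf2 cKO and control muscle. Of the 50 genes, 47 passed the filter on low counts, and 0 of 47 were called higher or lower (edgeR quasi-likelihood test, adjusted p under 0.05 over 14867 genes), where 0.249% of all genes tested were called. At an unadjusted p under 0.05 the count was again 0, where 9.93% of all genes passed, and DESeq2 and limma-voom each called 0. The fold changes (log2, Igf2 cKO over control) had a median of 0.0074 over the members, against 0.0038 over all genes tested, with 24 above 0 and 23 below. They ran between -0.22 for Cox7a2 and 0.47 for Cox6b2, and the smallest adjusted p was 0.543, for Cox8a.

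The SE of the fold change ran between 0.11 for Atp5s and 0.38 for Cox6b2 on the log2 scale, with a median of 0.17, and the 95% interval of the difference lay within 2-fold in either direction for 46 of 47 genes, all but Cox6b2, and within 1.5-fold for 43 of 47. Among all genes tested the interval lay within 2-fold for 78.9%. In whole muscle, fewer cells of a type and less RNA per cell cannot be told apart. The labels give the samples as replicates of a genotype, and p-values measure the spread between these 3 samples a group.

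**Figure D1:**
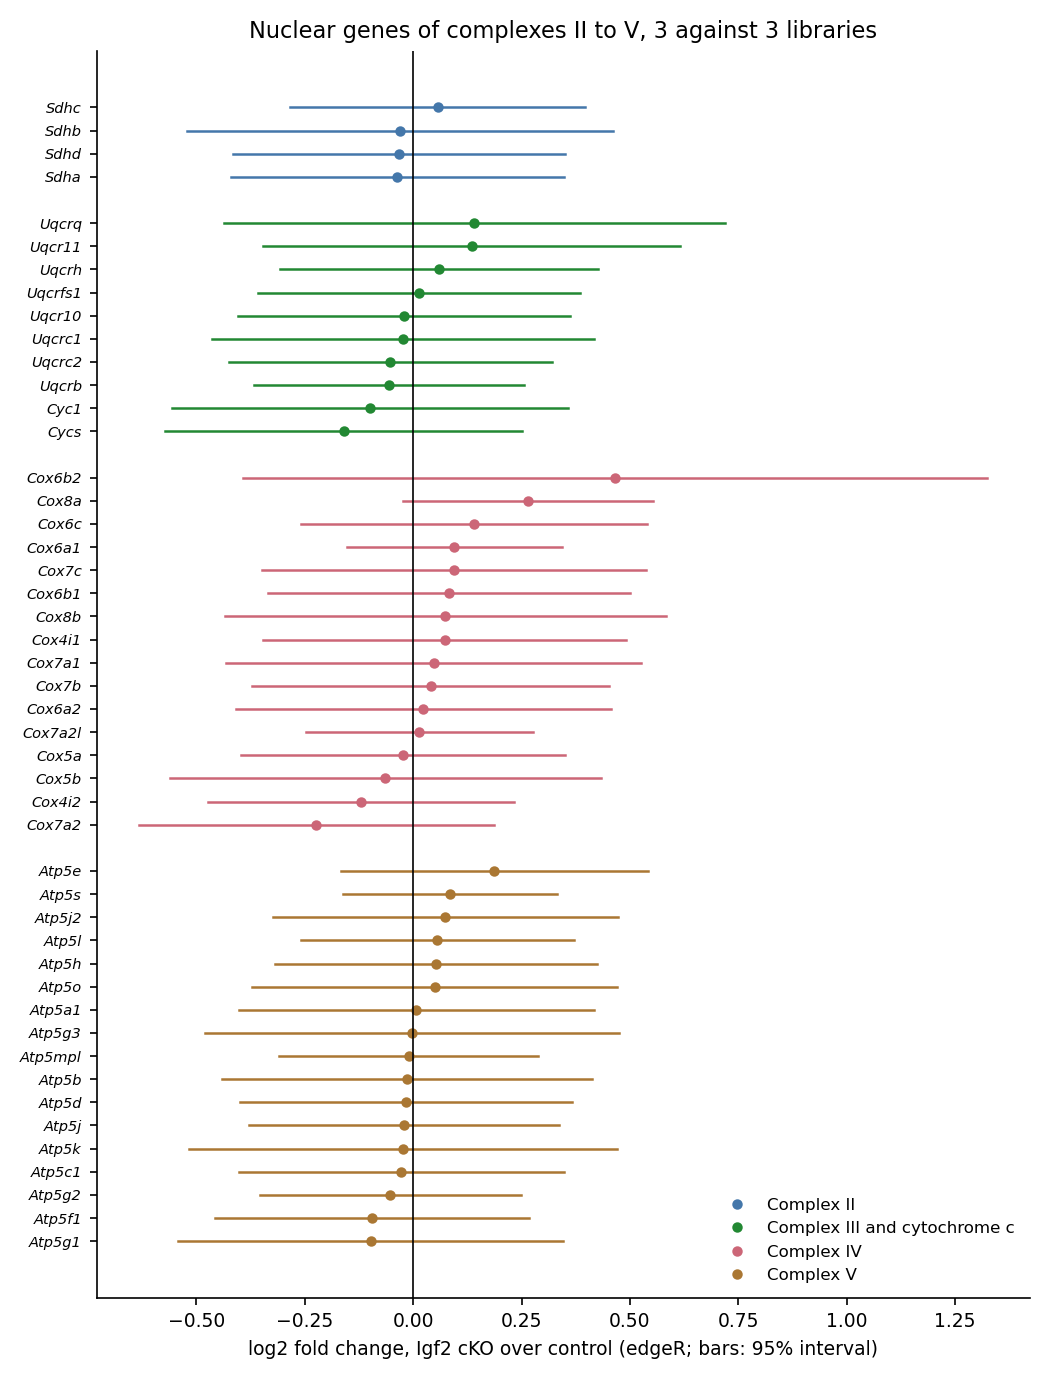
Log2 fold change (Igf2 cKO over control, x axis) of each of the 47 tested genes, in rows grouped by complex, with 95% intervals as horizontal bars. Every interval includes 0, and all but that of Cox6b2 lie within 2-fold.

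The sign of the median over the members depended on single libraries. Without Igf2 cKO replicate 2 it was -0.15, with 42 of 47 genes below 0, and without Igf2 cKO replicate 1 it was 0.10, with 41 of 47 above 0. Without control replicate 1 it was -0.11. No member passed the adjusted threshold in any of these fits. In the authors' deposited table, which compares 1 library with 1 library at each replicate number, the 47 genes had median log2 fold changes of 0.02, 0.21 and -0.23 for replicates 1, 2 and 3, with 26, 45 and 5 genes above 0 and an adjusted p of 1 throughout.

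The 4 genes of complex II stood close together. By level per length, Sdhd, one of the membrane anchors, was the highest at 195 FPKM, which is fragments counted per kilobase of the gene and scaled to library size, over all 6 libraries, and Sdhc, the other anchor, the lowest at 81.6 FPKM. Sdha, the flavoprotein that oxidises succinate, had 644, 945 and 743 CPM in Igf2 cKO muscle, against 705, 838 and 847 CPM in control muscle. Sdhd had 203, 292 and 222 CPM in Igf2 cKO muscle, against 204, 258 and 272 CPM in control muscle. In both genes the highest library was Igf2 cKO replicate 2, the lowest Igf2 cKO replicate 1, and the groups overlapped. Sdhc had 238, 326 and 250.5 CPM in Igf2 cKO muscle, against 230.2, 282 and 271 CPM in control muscle, a log2 difference of 0.06 ± 0.15 (SE) with an adjusted p of 0.942 (edgeR). The 4 fold changes, Sdhb with its iron-sulfur clusters included, ran between -0.04 and 0.06 on the log2 scale, with a median of -0.03. That median was -0.20 without Igf2 cKO replicate 2, -0.13 without control replicate 1 and 0.10 when Igf2 cKO replicate 1 was left out.

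In complex III and cytochrome c, 10 of 10 genes were tested, 4 had estimates above 0 and 6 below, and their median log2 fold change was -0.02. It was -0.17 without Igf2 cKO replicate 2, -0.12 without control replicate 1 and 0.09 when Igf2 cKO replicate 1 was left out. Uqcrfs1, the Rieske iron-sulfur protein, was the highest of them per length, at 375 FPKM. It had 440.7, 635 and 471 CPM in Igf2 cKO muscle, against 458, 539 and 535 CPM in control muscle, a log2 difference of 0.01 ± 0.16 (SE). Cycs, the cytochrome c that carries electrons between complexes III and IV, was the lowest per length at 74.2 FPKM.

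Cycs had 189.6, 305 and 225 CPM in Igf2 cKO muscle, against 234, 275 and 295 CPM in control muscle. Its lowest 2 libraries were both Igf2 cKO and its highest was Igf2 cKO replicate 2, so the groups overlapped. The log2 difference was -0.16 ± 0.18 (SE, 95% interval -0.57 to 0.25, edgeR adjusted p = 0.84). It was -0.37 without Igf2 cKO replicate 2 (edgeR adjusted p = 0.401) and -0.02 without Igf2 cKO replicate 1. Uqcr11, a small subunit of complex III, had 120.1, 181 and 133 CPM in Igf2 cKO muscle, against 94.9, 153 and 148 CPM in control muscle. The highest value was that of Igf2 cKO replicate 2 and the lowest that of control replicate 1, and the difference of 0.13 ± 0.21 (log2, SE) had an adjusted p of 0.893 (edgeR). The other 7 genes of this group had estimates between -0.10 and 0.14 on the log2 scale, and each overlapped between the groups. The core proteins Uqcrc1 and Uqcrc2, which frame the complex on its matrix side, were at -0.02 ± 0.19 and -0.05 ± 0.16 (log2, SE), and Cyc1, the cytochrome c1 that hands electrons to cytochrome c, at -0.10 ± 0.20. Of the small subunits, Uqcrq had the widest spread, with 235, 434 and 294 CPM in Igf2 cKO muscle, against 209, 347 and 317 CPM in control muscle (0.14 ± 0.25, log2, SE). Uqcrb, Uqcrh and Uqcr10 lay between -0.06 and 0.06.

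**Figure D2:**
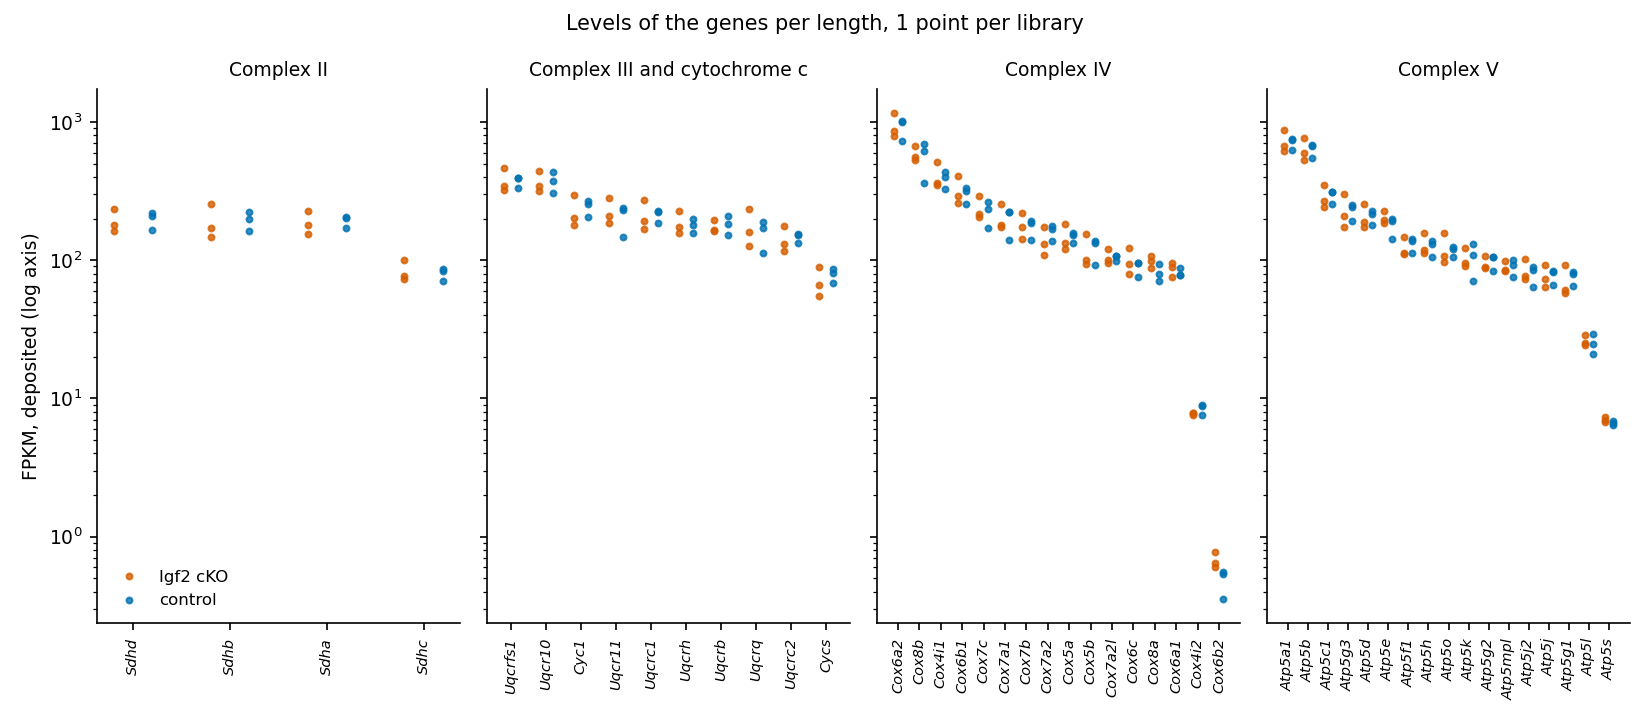
Level of each tested gene in FPKM (y axis, log scale), 1 point per library, with Igf2 cKO left of control, in panels by complex and ordered by level. Cox6a2 is the highest at 924 FPKM over all libraries and Cox6b2 the lowest of the tested genes at 0.576 FPKM.

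Complex IV held both the highest and the lowest tested gene per length, and its subunits that exist in several forms were read apart. In mice, Cox6a2, Cox7a1 and Cox8b are the heart and skeletal muscle forms, and Cox6a1, Cox7a2 and Cox8a the forms of most other tissues. Cox4i2 is known as a lung form of Cox4i1, and Cox6b2 as a testis form of Cox6b1, while Cox7b2 and Cox8c are rare forms of Cox7b and of the subunit of Cox8a and Cox8b. Upstream sequence was at hand for both forms of subunits 7a and 8 and for the general form of subunit 6a, and it is printed to set muscle forms beside general ones. Each stretch is the 250 bases before the start of transcription in RefSeq (GRCm38.p6), written 5′ to 3′ on the strand of the gene with every CpG in capitals.

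The stretches are chr7:30183921-30184170 on the plus strand for Cox7a1, chr9:79759854-79760103 on the minus strand for Cox7a2, chr7:140900447-140900696 on the minus strand for Cox8b, chr19:7217617-7217866 on the minus strand for Cox8a, and chr5:115348959-115349208 on the minus strand for Cox6a1.
Cox7a1: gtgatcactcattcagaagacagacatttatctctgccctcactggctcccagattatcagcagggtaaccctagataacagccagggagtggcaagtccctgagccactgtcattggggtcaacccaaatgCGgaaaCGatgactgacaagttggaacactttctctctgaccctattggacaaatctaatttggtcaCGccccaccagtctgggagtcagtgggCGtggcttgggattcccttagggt
Cox7a2: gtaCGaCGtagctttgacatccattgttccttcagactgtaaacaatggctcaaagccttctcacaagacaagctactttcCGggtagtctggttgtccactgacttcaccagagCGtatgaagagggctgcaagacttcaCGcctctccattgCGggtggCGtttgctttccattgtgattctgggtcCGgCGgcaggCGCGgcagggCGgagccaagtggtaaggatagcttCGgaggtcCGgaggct
Cox8b: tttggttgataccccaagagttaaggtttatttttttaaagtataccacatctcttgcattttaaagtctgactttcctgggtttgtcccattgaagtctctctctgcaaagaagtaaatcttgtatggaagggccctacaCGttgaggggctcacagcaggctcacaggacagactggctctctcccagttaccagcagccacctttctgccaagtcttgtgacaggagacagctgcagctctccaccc
Cox8a: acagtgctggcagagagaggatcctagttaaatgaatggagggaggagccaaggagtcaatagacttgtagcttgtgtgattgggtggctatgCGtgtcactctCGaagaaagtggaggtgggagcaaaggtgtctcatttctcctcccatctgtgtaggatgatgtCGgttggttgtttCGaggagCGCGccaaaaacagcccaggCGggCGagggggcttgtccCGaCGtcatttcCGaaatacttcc
Cox6a1: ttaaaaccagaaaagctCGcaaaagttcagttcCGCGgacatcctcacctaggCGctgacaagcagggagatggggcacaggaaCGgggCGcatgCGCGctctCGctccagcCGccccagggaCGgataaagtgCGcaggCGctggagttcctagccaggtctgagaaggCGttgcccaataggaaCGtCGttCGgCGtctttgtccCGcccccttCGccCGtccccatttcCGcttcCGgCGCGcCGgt

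The muscle forms held few CpG dinucleotides in this window, 4 for Cox7a1 and 1 for Cox8b, while Cox7a2 held 14, Cox8a 11 and Cox6a1 26. The median was 14 over the 37 members with an entry, matched by symbol, and 6 over all 27025 promoters of the table. Both strands were searched for 5 motifs, and a match describes letters, not binding. CCGGAAG, read by GABP and other ETS factors, was found in 8 of 37 members (21.6%) and in 7.05% of all promoters, and AAGGTCA, read by estrogen-related receptors, in 2 of 37 (5.41%) and 4.05%. The E-box CAGCTG was in 2 of 37 members (5.41%) and 12.8% of all promoters, the NRF1 motif in 2 of 37 (5.41%) and 1.01%, and the MEF2 motif in 0 of 37 and 3.01%. Among the printed stretches, Cox6a1 held the ETS letters, on its other strand, from 16 bases before the start, and Cox8b held the E-box from 19 bases before it. Cox6a1 also held the NRF1 letters except for the first, where it has G, and this was not counted as a match. No match overlapped another there.

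Subunit 6a was almost all of the muscle form in both groups. Cox6a2 had 790.1, 1154 and 853 FPKM in Igf2 cKO muscle, against 732, 991 and 1023 FPKM in control muscle, with the highest and the lowest library in different groups and no separation between them. Cox6a1 had 76.0, 94.9 and 89.2 FPKM in Igf2 cKO muscle, against 78.2, 87.1 and 77.6 FPKM in control muscle. Of the FPKM of the pair, Cox6a2 took 91.2, 92.4 and 90.5% in Igf2 cKO muscle, against 90.4, 91.9 and 92.9% in control muscle. The log2 ratio of the pair differed by -0.07 (Igf2 cKO minus control, exact two-sided permutation p = 0.8).

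By FPKM, subunit 7a was the one in which the general form came near the muscle form. This order rests on the listed gene lengths, 535 bases for Cox7a1 and 944 for Cox7a2. In counts Cox7a2 was the higher in each library. It had 1847, 2671 and 2083 counts in Igf2 cKO muscle, against 2399, 3013 and 2425 in control muscle. Cox7a1 had 1732, 2203 and 1582 counts in Igf2 cKO muscle, against 1390, 2148 and 1844 in control muscle. Cox7a1 had 179, 253 and 175 FPKM in Igf2 cKO muscle, against 139.6, 223 and 224 FPKM in control muscle, and its fold change was 0.05 ± 0.21 (log2, SE, edgeR adjusted p = 0.969). Cox7a2 had 108, 174 and 130.5 FPKM in Igf2 cKO muscle, against 137, 177 and 167 FPKM in control muscle. Its groups overlapped through Igf2 cKO replicate 2, and its log2 fold change was -0.22 ± 0.18 (SE, 95% interval -0.63 to 0.19, edgeR adjusted p = 0.751). Without Igf2 cKO replicate 2 it was -0.43 (edgeR adjusted p = 0.34), and without Igf2 cKO replicate 1 it was -0.08. Cox7a1 took 62.3, 59.3 and 57.3% of the pair in Igf2 cKO muscle, against 50.6, 55.7 and 57.3% in control muscle, or 59.6 ± 2.55% and 54.5 ± 3.53% (SD, n = 3 each). Igf2 cKO replicate 3 and control replicate 3 had nearly the same share, and the difference in log2 ratio of 0.30 gave an exact two-sided permutation p of 0.2.

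In subunit 8, Cox8b had 557, 673 and 528 FPKM in Igf2 cKO muscle, against 361, 619 and 687 FPKM in control muscle, so the control group held both the lowest and the highest library. Cox8a had 48.1, 58.9 and 53.3 CPM in Igf2 cKO muscle, against 39.0, 51.2 and 43.1 CPM in control muscle, or 53.4 ± 5.41 and 44.5 ± 6.21 CPM (SD, n = 3 each). The lowest 2 libraries were both control, but Igf2 cKO replicate 1 lay under control replicate 2 and the groups overlapped. Of the 47 genes Cox8a had the smallest p (0.0677 unadjusted, 0.543 adjusted, edgeR), with a log2 fold change of 0.26 ± 0.13 (SE, 95% interval -0.02 to 0.55). Cox8b took 86.4, 86.2 and 84.4% of the pair in Igf2 cKO muscle, against 83.5, 86.9 and 89.7% in control muscle, and the log2 ratio differed by -0.15 (exact two-sided permutation p = 0.7).

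**Figure D3:**
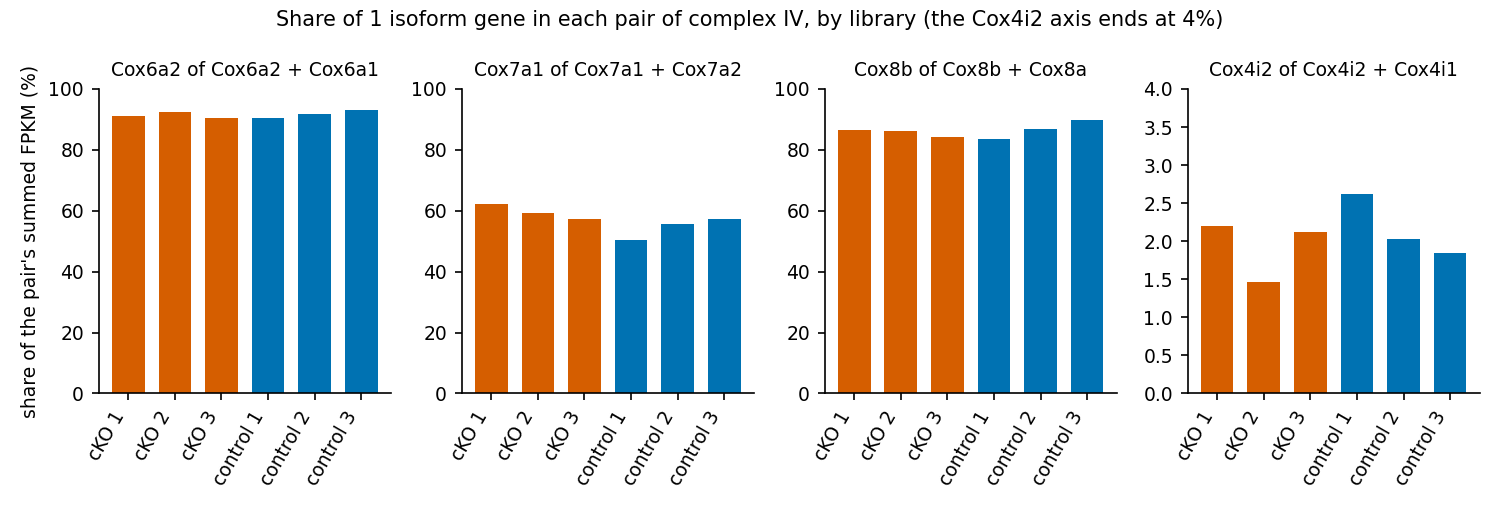
Share of the first-named gene in the summed FPKM of each complex IV pair, in percent (y axis), as 1 bar per library, with Igf2 cKO left of control and an axis of its own for Cox4i2. The groups overlap in all 4 pairs, and Cox7a1 holds 50.6 to 62.3% of its pair.

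Subunit 4 was almost wholly Cox4i1, which had 348, 511 and 363 FPKM in Igf2 cKO muscle, against 325, 433 and 403 FPKM in control muscle. Cox4i2 had 7.85, 7.58 and 7.88 FPKM in Igf2 cKO muscle, against 8.73, 8.95 and 7.59 FPKM in control muscle. It made up 1.46 to 2.62% of the pair in the 6 libraries, and the log2 ratio differed by -0.18 (exact two-sided permutation p = 0.6). The 4 pairs were compared in one family, in which 3 libraries against 3 cannot give a p below 0.1, and after Benjamini-Hochberg adjustment all 4 had an exact permutation p of 0.8.

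Subunits 6b and 7b were of the general form. Cox6b1 had 260.0, 408 and 292 FPKM in Igf2 cKO muscle, against 254, 334 and 317 FPKM in control muscle. Cox6b2 had 12, 14 and 12 counts in Igf2 cKO muscle, against 11, 11 and 6 counts in control muscle. It was the 1 of 47 members whose groups did not overlap in CPM, where 15.5% of all genes tested did not overlap, and its log2 fold change of 0.47 ± 0.38 (SE, 95% interval -0.39 to 1.32) had an adjusted p of 0.751 (edgeR). At these counts it was the least precise of the members.

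Cox7b had 175, 267 and 210.2 CPM in Igf2 cKO muscle, against 172, 228 and 235 CPM in control muscle. Cox7b2 had 1 count, in Igf2 cKO replicate 2, and Cox8c had 0 counts in every library, which allows up to 3 counts per library, a limit for counting error only. Neither was tested. Among the subunits with 1 form, Cox5a and Cox5b were at -0.02 ± 0.16 and -0.06 ± 0.22 (log2 fold change, SE), and Cox7c at 0.09 ± 0.19. Cox6c had 285, 435 and 332 CPM in Igf2 cKO muscle, against 271, 340.4 and 343 CPM in control muscle (0.14 ± 0.17, log2, SE). Apart from these subunits, Cox7a2l had one of the narrower errors, at 0.01 ± 0.11.

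Over the 16 tested genes of complex IV, 12 had estimates above 0 and 4 below, with a median log2 fold change of 0.06. Without Igf2 cKO replicate 2 that median was -0.11, without control replicate 1 it was -0.08, and it was 0.15 when Igf2 cKO replicate 1 was left out.

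In complex V, 17 of 18 genes were tested. Atp5a1, which encodes the alpha subunit of the catalytic head, was its highest gene per length at 713 FPKM, and Atp5s, a coupling factor, its lowest at 6.82 FPKM. Atp5a1 had 1940.0, 2733 and 2082 CPM in Igf2 cKO muscle, against 1989, 2353 and 2378 CPM in control muscle, a log2 difference of 0.01 ± 0.18 (SE). Igf2 cKO libraries were both the highest and the lowest. Atp5s had 15.2, 14.2 and 13.8 CPM in Igf2 cKO muscle, against 13.1, 14.0 and 13.5 CPM in control muscle. Its highest library was Igf2 cKO replicate 1, and the groups overlapped.

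Atp5e, the epsilon subunit of the rotating stalk, had the smallest p of complex V. It had 345, 397 and 324 CPM in Igf2 cKO muscle, against 249.8, 351 and 336 CPM in control muscle, and a log2 fold change of 0.19 ± 0.15 (SE, 95% interval -0.17 to 0.54, edgeR adjusted p = 0.76). Control replicate 1 was the lowest library by a wide margin and the other 5 overlapped. Of the 17 tested genes of complex V, 7 had estimates above 0 and 10 below, between -0.10 and 0.19 on the log2 scale with a median of -0.01. That median was -0.17 without Igf2 cKO replicate 2, -0.11 without control replicate 1 and 0.09 when Igf2 cKO replicate 1 was left out. The other catalytic gene, Atp5b for the beta subunit, had 2256, 3237 and 2499.8 CPM in Igf2 cKO muscle, against 2341, 2841 and 2894 CPM in control muscle, in the same order of libraries as Atp5a1. Atp5c1 and Atp5d of the central stalk were at -0.03 ± 0.16 and -0.02 ± 0.17 (log2 fold change, SE). Of the outer stalk, Atp5f1 was at -0.09 ± 0.16, Atp5h at 0.05 ± 0.16, Atp5j at -0.02 ± 0.16 and Atp5o at 0.05 ± 0.18. The small membrane subunits Atp5k, Atp5l, Atp5j2 and Atp5mpl lay between -0.02 and 0.07. A second Atp5o entry (ENSMUSG00000116933) had 0 counts in all libraries, while the first carried the counts of that gene.

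The c subunit, which forms the ring of the motor, is encoded by Atp5g1, Atp5g2 and Atp5g3, whose products share the mature protein and differ in the import sequence. Atp5g1 had 57.9, 92.7 and 61.0 FPKM in Igf2 cKO muscle, against 64.5, 79.9 and 81.5 FPKM in control muscle. Atp5g2 had 87.8, 106 and 89.3 FPKM in Igf2 cKO muscle, against 83.2, 105 and 105 FPKM in control muscle, and Atp5g3 had 175, 302 and 208 FPKM in Igf2 cKO muscle, against 191, 242 and 253 FPKM in control muscle. Each gene overlapped between the groups, and the log2 fold change of Atp5g1 was -0.10 ± 0.19 (SE) with all libraries. It was -0.35 without Igf2 cKO replicate 2 (edgeR adjusted p = 0.421) and 0.02 without Igf2 cKO replicate 1. The sum was 321, 501 and 358 FPKM in Igf2 cKO muscle, against 339, 427 and 439 FPKM in control muscle. The order of the genes in FPKM rests on their listed lengths, 4912 bases for Atp5g1, 1675 for Atp5g2 and 2181 for Atp5g3. By CPM, Atp5g1 was above Atp5g2 in each library.

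Within the sum, Atp5g1 held 18.0, 18.5 and 17.0% in Igf2 cKO muscle, against 19.0, 18.7 and 18.6% in control muscle, so the groups did not overlap. The means were 17.9 ± 0.754% and 18.8 ± 0.231% (SD, n = 3 each), and the exact two-sided permutation p of 0.1, the smallest this design can give, was 0.3 after adjustment over the 3 shares. Atp5g2 held 27.4, 21.2 and 24.9% in Igf2 cKO muscle, against 24.5, 24.7 and 23.9% in control muscle (exact permutation p = 0.8). Atp5g3 held 54.6, 60.3 and 58.1% in Igf2 cKO muscle, against 56.4, 56.6 and 57.5% in control muscle (exact permutation p = 0.7). Igf2 cKO replicate 2 had the lowest Atp5g2 share and the highest Atp5g3 share, and the SD of the Atp5g3 share was 2.88 percentage points in Igf2 cKO muscle and 0.609 in control muscle.

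The genes of complexes II to V went up and down together from library to library. Their counts summed to 15089, 21973 and 16380 CPM in Igf2 cKO muscle, against 15199, 18996 and 19212 CPM in control muscle, or 17814 ± 3659 and 17802 ± 2257 CPM (SD, n = 3 each). Igf2 cKO replicate 2 was the highest library and Igf2 cKO replicate 1 the lowest, and the group means were nearly equal. Igf2 cKO replicate 2 was the highest library for each of the 4 complexes. Complex II summed to 1419, 2140 and 1595 CPM in Igf2 cKO muscle, against 1507, 1883 and 1837 CPM in control muscle. Complex IV differed in that control replicate 1 was the lowest library, with sums of 2997, 4353 and 3213 CPM in Igf2 cKO muscle, against 2803, 3733 and 3720 CPM in control muscle. For complex V the sums were 7771, 11002 and 8327 CPM in Igf2 cKO muscle, against 7831, 9570 and 9768 CPM in control muscle.

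Gene by gene, Igf2 cKO replicate 2 was the highest of the 6 libraries for 39 of 47 members and among the highest 2 for 46. The lowest was control replicate 1 for 24 members and Igf2 cKO replicate 1 for 20. Between these Igf2 cKO libraries, replicate 2 over replicate 1, the CPM ratio had a median of 1.44 and ran between 0.938 and 1.85, and it was above 1 for 45 of 47. These counts describe single libraries of one group and carry no test.

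**Figure D4:**
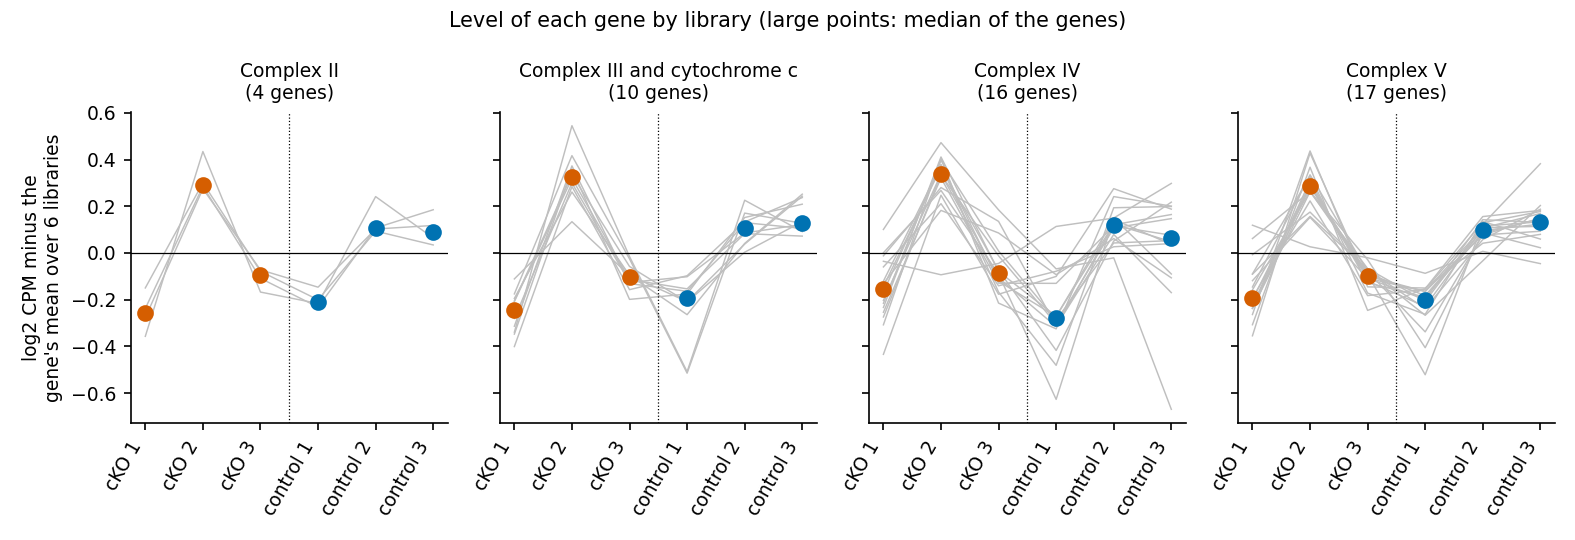
Log2 CPM of each tested gene minus its mean over all libraries (y axis), by library with Igf2 cKO left of control, in panels by complex, with a grey line per gene and large points for the median. Median deviations over all members are -0.20, 0.30 and -0.10 in Igf2 cKO libraries, against -0.21, 0.11 and 0.13 in control libraries.

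The SD of log2 CPM within a group had a median of 0.242 over the members and 0.194 over all genes tested. With each library's median member subtracted, it was 0.0696 over the members, smaller for 42 of 47, and 0.327 over all genes. Centring the members on their own median lowers their spread by construction and adds that of the median to other genes. On this scale, chosen after the data were seen, 6 of 47 members did not overlap between the groups, where 6.49% of all genes did not overlap. The 3 that were higher in Igf2 cKO muscle were Uqcr11 (0.17), Cox6c (0.15) and Atp5j2 (0.10), and the 3 lower were Cox7a2 (-0.22), Cycs (-0.16) and Cyc1 (-0.10), all as log2 differences relative to the median member. They were named after their values were seen, and no p is given for them.

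Genes that work with these complexes were read from 5 lists, and 0 genes of them were called. All 6 subunits of complexes III to V encoded in mitochondrial DNA were tested, with a median log2 fold change of 0.20, 4 above 0, and wide errors. Mt-Co2, which holds a copper centre of complex IV, had 251, 864 and 471 CPM in Igf2 cKO muscle, against 191, 392 and 512 CPM in control muscle (0.53 ± 0.46, log2, SE, edgeR adjusted p = 0.766). Mt-Atp8, a subunit of complex V, had 1.06, 5.38 and 1.42 CPM in Igf2 cKO muscle, against 0.216, 1.68 and 2.16 CPM in control muscle (0.96 ± 0.78, edgeR adjusted p = 0.751). In both genes Igf2 cKO replicate 2 was the highest library and control replicate 1 the lowest. By the mean log2 deviation of the mitochondrial list and the median one of the nuclear members, the 6 libraries stood in the same order, but by summed CPM they did not: the mitochondrial list had 43035 CPM in Igf2 cKO replicate 3 and 42331 CPM in control replicate 2, where the members had 16380 and 18996 CPM.

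Of 37 assembly factors 35 were tested, with a median log2 fold change of 0.02. Cox17, the copper chaperone of complex IV, had 3.51, 5.13 and 4.31 CPM in Igf2 cKO muscle, against 2.32, 3.63 and 3.33 CPM in control muscle (0.48 ± 0.25, log2, SE, edgeR adjusted p = 0.595). Coa3, a factor for the synthesis of its subunit 1, had 54.8, 57.7 and 54.2 CPM in Igf2 cKO muscle, against 45.2, 47.9 and 53.2 CPM in control muscle (0.19 ± 0.09, edgeR adjusted p = 0.565). Coa3 did not overlap between the groups, as was so for 15.5% of all genes tested, whereas Cox17 did overlap.

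The 8 genes of heme synthesis and cytochrome c maturation had a median of -0.03 (log2), and Urod, an enzyme of heme synthesis, was at -0.19 ± 0.10 (SE, edgeR adjusted p = 0.575), with Cpox of the same pathway at -0.11 (adjusted p = 0.755). The 11 genes of cristae and coupling had a median of 0.03. There the nucleotide carrier Slc25a5 was at 0.22 ± 0.11 (SE, edgeR adjusted p = 0.586), and Opa1, which shapes cristae, at -0.14 ± 0.11 (adjusted p = 0.731).

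Of 7 regulators, with a median of -0.05, Ppargc1a, a coactivator of mitochondrial genes, had 22.5, 79.3 and 33.9 CPM in Igf2 cKO muscle, against 19.9, 32.5 and 40.8 CPM in control muscle (0.54 ± 0.43, log2, SE, edgeR adjusted p = 0.749). Its highest library was again Igf2 cKO replicate 2 and its lowest control replicate 1. Gabpa, a subunit of the factor GABP, was at -0.08 ± 0.10 (adjusted p = 0.866). Gabpa overlaps Atp5j on the opposite strand, and its counts over the whole gene are 21.6% of those of Atp5j. Without a stated strand setting, reads in the shared stretch cannot be assigned to either gene. The size of that stretch was not measured, so the percentage is not the extent of mixing. The same holds for Cox6c and Vps13b (7.96%), Atp5f1 and Wdr77 (3.73%) and Cox4i1 and Emc8 (3.55%).

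The 8 slow fibre genes had mean log2 deviations of -1.25, 1.38 and -1.27 in Igf2 cKO libraries, against 0.43, 0.31 and 0.40 in control libraries. Igf2 cKO replicate 2, the highest library of the members, was also the highest in slow fibre genes. Igf2 cKO replicate 1 was low in both, while control replicate 1, with a slow fibre level like the other controls, was the lowest library for 24 members. Igf2 cKO replicate 3, with the lowest slow fibre mean, had a median member deviation of -0.10 and was the lowest library for 1 member. Myh2, the myosin of oxidative fast fibres, had 920.5, 2917 and 1201 CPM in Igf2 cKO muscle, against 1116, 1624 and 1454 CPM in control muscle. With the slow fibre score as a covariate, added after the data were seen, 44 of 47 members had estimates above 0, and 0 were called. Their median was 0.12, against -0.0036 over all genes tested. The members went up and down together, so the 44 are not separate results. Cox8a was at 0.32 ± 0.13 (log2, SE, edgeR adjusted p = 0.42). The part of fibre type in the levels of the members was not tested beyond this fit.

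White fat genes summed to 627, 609 and 1437 CPM in Igf2 cKO muscle, against 827, 824 and 485 CPM in control muscle, in another order of libraries than the members. The lowest libraries here, control replicate 3 and Igf2 cKO replicate 2, were the highest in summed CPM of the members. Igf2 cKO replicate 1, the next lowest here, was the lowest of the members by that sum. Genes of red blood cells summed to 322, 358 and 312 CPM in Igf2 cKO muscle, against 617, 463 and 449 CPM in control muscle. These sums did not overlap between the groups, where 15.5% of single genes tested did not overlap. An unadjusted p under 0.05 (edgeR) was reached by 5 of 5, where 9.93% of all genes tested passed, and 0 were called. All 5 went the same way and mark 1 cell type, so they are not separate results. The part of white fat and red blood cells in the results on the members was not tested.

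**Figure D5:**
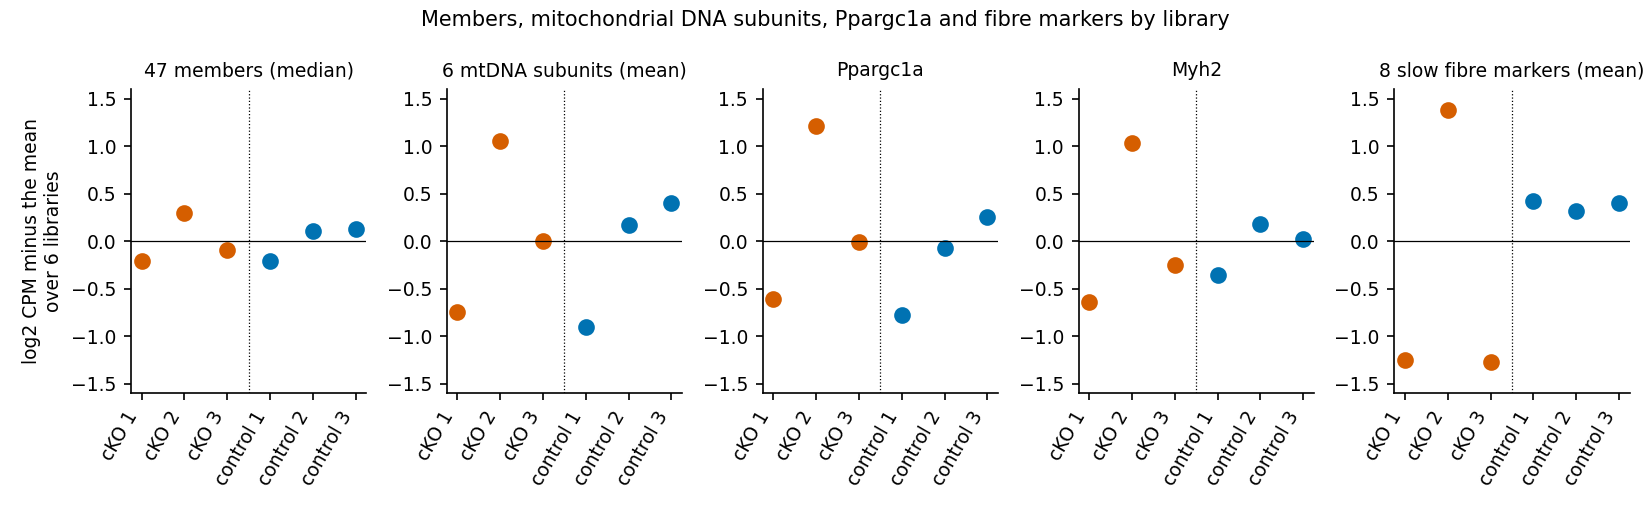
Log2 CPM minus the mean over the libraries (y axis), by library with Igf2 cKO left of control, for the 47 nuclear members (median), the 6 subunits encoded in mitochondrial DNA (mean), Ppargc1a, Myh2 and the 8 slow fibre markers (mean). Igf2 cKO replicate 2 is the highest library in all 5 panels, and the slow fibre markers are at 1.38 there.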

How the data were processed

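Muscle RNA was sequenced, per the labels' protocols, in 3 Igf2 cKO and 3 control libraries. The authors deposited 1 table with raw read counts and FPKM values per gene and, per the file headers, log2 fold changes with p-values for 3 comparisons of single libraries. Aligner, counter, genome build and strand use: not given in the sources used here. Positions in the table were those of GENCODE M21 (GRCm38) for 48 of 50 members. The 6 columns of per-sample values not matched to a sample were not used.

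Counts were tested with edgeR 4.0.16 in R 4.3.3 (TMM factors, filterByExpr, quasi-likelihood test, Benjamini-Hochberg over 14867 genes), with genotype as the only term and the deposited counts as input. CPM used TMM library sizes. The test was checked on simulated counts. Shares of isoforms were taken from FPKM, because it is per length, and compared with exact two-sided permutation tests over libraries. FPKM depends on the gene length listed in the table, which takes in long annotated transcripts. Alternatives were DESeq2 1.42.0, limma-voom (limma 3.58.1), other scalings and filters, a replicate block, each library left out, and, added after the data were seen, a slow fibre covariate and scaling to the median member. Depth was 16184371 to 17905203 reads.

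The members and lists were chosen with earlier results of these data known. Members named by rule with every value were called genes (0), the isoform pairs of complex IV and the 3 Atp5g genes. In each complex the rule added the 2 with the smallest p and the highest and lowest by FPKM. Uqcrq, Cox6c and Atp5b were given with every value outside this rule. From each pathway list the 2 with the smallest p were named. Genes with other reasons are named as such. The 8 other rows with matching symbols were pseudogenes of at most 24 counts. Promoters came from RefSeq (GRCm38.p6).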

Additional observations from a re-analysis of the deposited data

How the results depend on the processing

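The number of members called was 0 under all 17 alternatives, and the smallest adjusted p of any member was 0.34, for Cox7a2 without Igf2 cKO replicate 2. At an unadjusted p under 0.05 there were 4 of 47 members without Igf2 cKO replicate 2. There was 1 each without Igf2 cKO replicate 1, without control replicate 2, with the slow fibre covariate and with the replicate block. In the main fit 0 members and 9.93% of all genes tested passed this threshold. The share of all genes in the other fits is not given here, so these counts are not read as results about the members. Of the 23 tested members named by rule with all values, 15 had an estimate on the other side of 0 under some alternative. All of these lay within the 95% interval of the main estimate. The number of calls over all genes was 37, and it was 282 with no filter on low counts, 214 with DESeq2, 66 with the slow fibre covariate, 62 at an adjusted p under 0.1, 235 where the call asked for an unadjusted p under 0.05 and a log2 change of over 1 in size, and 8 to 68 with single libraries left out. The cause was not tested.

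With single libraries left out, the difference in log2 isoform ratio ran between -0.20 and 0.046 for Cox6a2 to Cox6a1, between -0.34 and 0.047 for Cox8b to Cox8a, and between -0.29 and 0.016 for Cox4i2 to Cox4i1, so that its sign changed (without control replicate 3 for the first 2 pairs, without Igf2 cKO replicate 3 also for the first at 0.0058, and without Igf2 cKO replicate 2 for the last), while Cox7a1 to Cox7a2 stayed between 0.19 and 0.38. Deviations of libraries with the same replicate number correlated at 0.16, 0.06 and -0.04, so the numbers were not taken as pairs, and 1 of 3 Igf2 cKO libraries correlated best with its own number. A fit with the replicate number as a block called 35 genes and 0 members, with a smallest member adjusted p of 0.382 (edgeR). With 3 libraries a group the median SE of 0.17 (log2) limits what could be called among the members.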

Other observations

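Some genes of the lists stood near 0 where their group was high. Tnnc2, the troponin C of fast fibres, was listed with 10, 10 and 2 counts in Igf2 cKO muscle, against 3, 9 and 7 in control muscle, while Tnni2, the troponin I of the same fibres, had 124269, 90966 and 103569 counts in Igf2 cKO muscle, against 106081, 111163 and 107294 in control muscle. In the deposited annotation Tnnc2 overlaps Ube2c on the opposite strand. Sco2, a copper chaperone of complex IV, and Pet117, another of its assembly factors, were listed at 0 in all 6 libraries, and Sco2 overlaps Ncaph2 and Tymp while Pet117 overlaps Kat14. Why these genes were listed so low was not tested, and their levels in muscle cannot be read from this table.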
